A study of Mus musculus with 4 samples.

Results

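Intermediate filament genes of muscle cells are described here by 9 genes, which were taken from the deposited expression tables by exact match of the gene symbol: Des, Vim, Nes, Synm, Sync, Plec, Lmna, Lmnb1 and Lmnb2. All 9 were found in each of the 4 libraries, among 24850 named entries in the total RNA tables and 24992 in the polyA tables. The cells were C2C12, an immortalised mouse myoblast line that fuses into multinucleated myotubes when serum is lowered, so all 4 libraries come from 1 line and from no animal tissue. Proliferating myoblasts (MB) were taken at -24 h and myotubes (MT) at 72 h relative to the switch to differentiation medium (DM), and their total RNA was sequenced after removal of ribosomal RNA. Myotubes transfected with a small interfering RNA against hnRNPL (si-hnRNPL), an RNA-binding protein, or with a negative control RNA (si-NC) were taken at 48 h in DM and sequenced as polyA RNA. There was 1 library per condition, so the spread between cultures is unknown and no test across replicates could be made.

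Intermediate filaments are ropes of coiled-coil proteins that assemble without nucleotides or polarity and give cells their resistance to stretch. Type III proteins such as vimentin and desmin form filaments by themselves, whereas nestin, synemin and syncoilin join them as partners, and plectin ties the filaments to the sarcomere, to the membrane and to the nucleus. The lamins are the nuclear branch of the family and build the mesh under the nuclear envelope. During muscle differentiation the vimentin network of the myoblast is known to be replaced by desmin, which links neighbouring myofibrils at their Z-discs, and mutations of DES, PLEC and LMNA cause muscular disease.

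Levels are given as FPKM, the number of fragments scaled to transcript length and to the mapped depth of the library, with the 95% interval that Cufflinks attached to each value. That interval covers errors of counting and of assigning fragments to genes in 1 library and not the spread between cultures. The width of the intervals corresponds to about 59960200 fragments in MB, 54442400 in MT, 21341100 in si-NC and 14592500 for si-hnRNPL, and the polyA libraries were therefore the less precise. Myogenin (Myog), a factor that switches on in differentiating myocytes, stood at an FPKM of 0.695 in MB, 251 in MT, 175 in si-NC and 249 in si-hnRNPL. The summed FPKM of the 8 muscle markers found was 153, 1250, 1780 and 2466 in the same order, and all markers of adipocytes, endothelium, neurons, glia and epithelium were under 1. The blood marker Cd68 reached 1.13 in MB. Hnrnpl, the targeted gene, stood at 95.1 (92.7 to 97.5) in the control and 85.9 (83.1 to 88.7) with si-hnRNPL, which is 90.4% of the control.

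Vim was the most abundant of the 9 genes in every library and Synm the least. The Vim transcript ranked 11 among all named genes in MB, 27 in MT, 7 in si-NC and 15 in si-hnRNPL. In MB the order of the FPKM levels was Vim, Lmna, Nes, Des, Plec, Lmnb1, Lmnb2, Sync and Synm. In MT it was Vim, Lmna, Des, Nes, Sync, Plec, Lmnb2, Lmnb1 and Synm, so Des stood above Nes, Sync above Plec, and Lmnb1 below Lmnb2. In si-NC the order was Vim, Des, Lmna, Nes, Plec, Lmnb1, Sync, Lmnb2 and Synm, and in si-hnRNPL Sync stood above Lmnb1. Intervals of neighbours overlapped for Sync and Lmnb2 in si-NC and for Lmnb1 and Lmnb2 in si-hnRNPL. No other neighbours in the 4 orders overlapped.

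**Figure D1:**
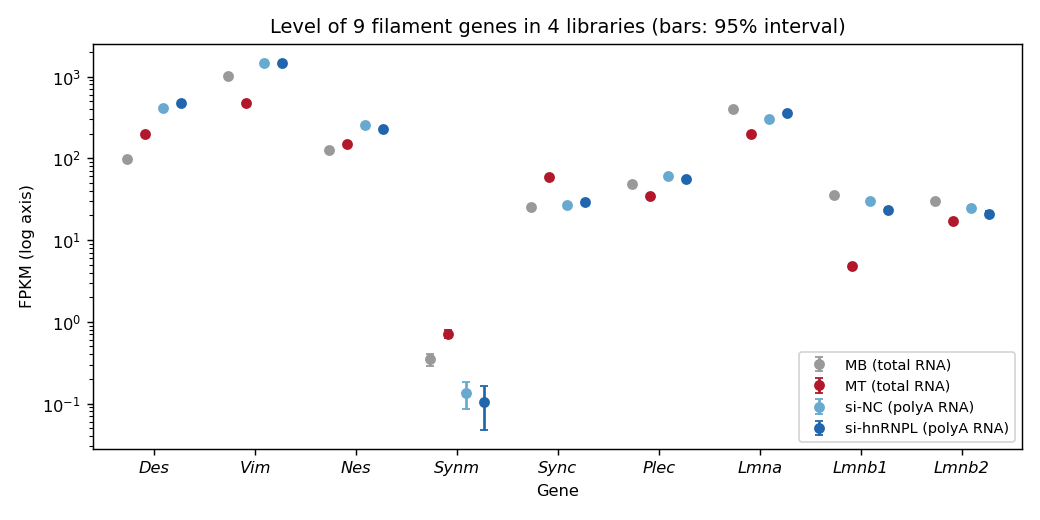
FPKM (log axis) of the 9 genes in the 4 libraries, with bars for the 95% Cufflinks interval of each value. Vim lies highest at 472 to 1477, and Synm lies below 1 in every library.

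The first comparison asks how the filament genes differ between myoblasts and myotubes. Change is the log2 ratio of FPKM + 1, which understates the change of low genes, and a gene was counted at an absolute change of 0.58 or more, the 1.5-fold rule of the study. By this rule 2 of the 9 genes were higher in MT (Des and Sync), 4 were lower (Vim, Lmna, Lmnb1 and Lmnb2) and 3 were neither (Nes, Synm and Plec). Of all 11486 named genes with a mean FPKM of at least 1, 14.6% were higher and 28.9% were lower by the same rule. The median change over the 9 genes was -0.47, against -0.21 over all genes tested. Synm was below the mean FPKM of 1 and the other 8 genes were above it. The counted change of smallest size was the -0.81 of Lmnb2, and the largest in size under the threshold was the -0.47 of Plec. Since the median of all genes lay at -0.21, the changes were also computed relative to it. The same 6 genes were then counted, against 21.1% of all genes higher and 19.4% lower.

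Des encodes desmin, the type III filament protein of mature muscle, and lies at 1:75356867-75365154 on the plus strand (mm9). Its FPKM was 98.7 (97.4 to 100.0) in MB and 195 (194 to 197) in MT, and the intervals lay far apart. The ratio was 1.98, a log2 change of 0.98 (0.96 to 1.00), or 1.19 relative to the median gene. Of the genes tested, 7.91% were higher in MT by at least as much. In the polyA libraries Des stood at 412 (394 to 429) with si-NC and 472 (452 to 492) with si-hnRNPL. Both values are above those of the total RNA libraries, from which they differ in RNA selection, time and transfection, which cannot be told apart. The half-width of the Des interval was 4.24% in si-NC against 0.901% in MT, although its FPKM was higher in si-NC. Among the muscle markers, Acta1 (skeletal actin) went from 12.1 to 479 and Ckm (muscle creatine kinase) from 0.00961 to 66.3 between MB and MT, so Des was already well above these genes in MB. In bulk RNA, a larger share of differentiated cells and more Des RNA per cell cannot be told apart.

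Sync encodes syncoilin, a partner of desmin that also binds the dystrophin-associated protein alpha-dystrobrevin, and lies at 4:128964865-128985803 on the plus strand (mm9). It had the largest positive change of the 9 genes between MB and MT. Its FPKM was 25.6 (24.8 to 26.4) in MB and 58.2 (57.0 to 59.4) in MT, a ratio of 2.27 and a log2 change of 1.15 (1.10 to 1.21). Of the genes tested, 6.28% were higher by at least as much. The locus overlaps that of Rbbp4, a histone-binding gene, by 1460 bp, and how the counting used strand is not given in the sources used here. Rbbp4 itself was slightly lower in MT, at 68.7 against 78.1, a log2 change of -0.18. In the polyA libraries Sync stood at 26.5 and 28.8.

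Synm encodes synemin, a large protein that co-assembles with desmin and vimentin, and lies at 7:74875047-74904628 on the minus strand (mm9). Its transcript was scarce in every library. FPKM was 0.347 (0.287 to 0.408) in MB and 0.714 (0.631 to 0.796) in MT. The linear ratio of 2.05 was close to that of Des, and its 2 intervals did not overlap. On the log2 scale with a pseudocount of 1 the change was only 0.35 (0.25 to 0.44), which is not counted. With a pseudocount of 0.1 the change was 0.86 and with 0.01 it was 1.02, and by both Synm was counted as higher in MT.

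Nes encodes nestin, a large partner of vimentin and desmin that marks progenitor cells and persists in young muscle fibres, and lies at 3:87775015-87784373 on the plus strand (mm9). Its FPKM was 126 (125 to 127) in MB and 150 (149 to 151) in MT. The log2 change of 0.25 (0.23 to 0.26) is below the threshold, and 25.7% of the genes tested were higher by at least as much. Relative to the upper quartile of the genes in each library the change was 0.59 and Nes was counted as higher.

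Vim encodes vimentin, the type III filament protein of mesenchymal and proliferating cells, and lies at 2:13495938-13504453 on the plus strand (mm9). Its FPKM was 1014 (1008 to 1019) in MB and 472 (468 to 475) in MT, so the MT level was 46.5% of the MB level. The log2 change was -1.10 (-1.12 to -1.09), or -0.89 relative to the median gene, and 11.2% of the genes tested were lower by at least as much. Even so Vim stood above the other 8 genes in MT. Its level was 1459 in si-NC and 1477 in si-hnRNPL.

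Plec encodes plectin, the giant linker between filaments and other structures, and lies at 15:76001404-76061808 on the minus strand (mm9). The annotation lists 23 transcripts of this gene, of which 22 are coding, and the gene values do not separate them. FPKM was 48.4 (47.9 to 48.8) in MB and 34.5 (34.2 to 34.9) in MT, a log2 change of -0.47 (-0.49 to -0.45). The change is under the threshold and was -0.26 relative to the median gene. Mir1942, a microRNA gene within the Plec locus, was listed at 0 in all 4 libraries.

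**Figure D2:**
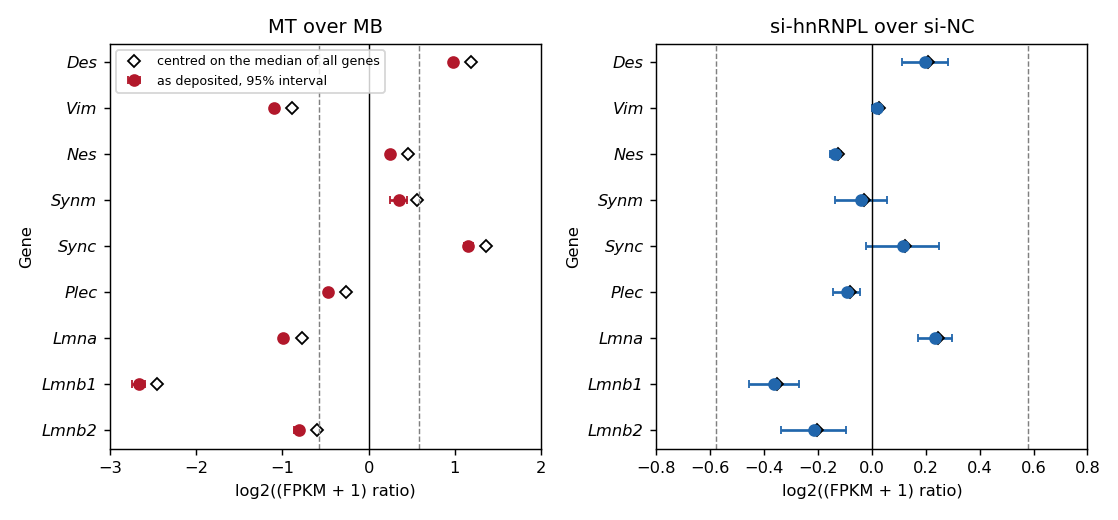
Log2 change of FPKM + 1 for the 9 genes, MT over MB and si-hnRNPL over si-NC, with bars for the interval made from both Cufflinks intervals, diamonds for the change relative to the median gene, and dashed lines at the threshold of 0.58. Changes run from -2.67 (Lmnb1) to 1.15 (Sync) in the first comparison and from -0.36 (Lmnb1) to 0.23 (Lmna) in the second, whose axis is narrower.

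**Figure D3:**
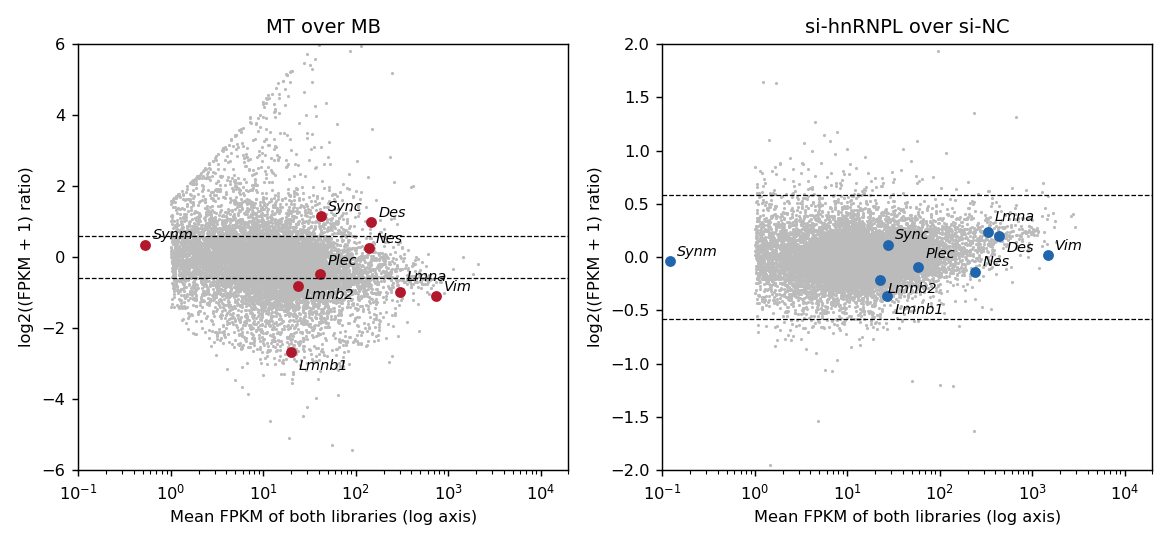
Log2 change of FPKM + 1 against the mean FPKM of both libraries (log axis) for all named genes tested (grey) and the 9 filament genes (coloured), with dashed lines at the threshold of 0.58. The vertical axes end at 6 and 2, which leaves 27 of 11486 genes and 29 of 11234 genes outside the panels. Lmnb1 lies near the lower edge of the cloud in the first panel, and all 9 genes lie between the dashed lines in the second.

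The sequences before the start of Des and Sync, the 2 genes counted as higher in MT, and of Vim, the most abundant gene counted as lower, are shown with their E-boxes in capitals. An E-box is the hexamer CANNTG, which is bound by MyoD and related factors. The pattern matches on both strands, although a given hexamer such as CAAATG reads differently on the other strand. Each line holds the 250 bases before the start, 5' to 3' on the strand of the gene, from RefSeq on GRCm38.p6. The windows are chr1:75360042-75360291 for Des, chr4:129287371-129287620 for Sync and chr2:13574061-13574310 for Vim, all on the plus strand.
Des: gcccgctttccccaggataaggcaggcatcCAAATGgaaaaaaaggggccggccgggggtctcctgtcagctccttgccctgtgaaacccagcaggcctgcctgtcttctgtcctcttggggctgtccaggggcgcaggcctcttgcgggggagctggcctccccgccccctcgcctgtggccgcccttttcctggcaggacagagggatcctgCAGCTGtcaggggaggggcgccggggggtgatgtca
Sync: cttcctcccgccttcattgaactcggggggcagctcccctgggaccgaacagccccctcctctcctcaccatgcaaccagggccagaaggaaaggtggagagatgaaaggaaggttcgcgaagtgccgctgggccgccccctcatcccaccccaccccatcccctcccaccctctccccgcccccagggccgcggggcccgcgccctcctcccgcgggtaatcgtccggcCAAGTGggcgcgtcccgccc
Vim: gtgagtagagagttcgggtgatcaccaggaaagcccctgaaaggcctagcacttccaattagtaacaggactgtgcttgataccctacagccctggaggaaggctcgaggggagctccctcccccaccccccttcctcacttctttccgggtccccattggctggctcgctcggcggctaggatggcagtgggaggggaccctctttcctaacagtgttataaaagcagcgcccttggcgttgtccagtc

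The Des window held E-boxes that begin 220 bases (CAAATG) and 36 bases (CAGCTG) before the start. The Sync window held 1, which begins 20 bases before the start (CAAGTG), and the Vim window held none. RefSeq windows were used for 7 of the 9 genes, and numbered 9 in all because Lmna and Lmnb2 have 2 each. None was matched for Plec. Windows on chromosome 18, where Lmnb1 lies, were left out of the search, so nothing is said of its E-boxes. Among these 5 windows held CANNTG, those of Des, Sync and Synm and the 2 of Lmnb2, a gene counted as lower in MT. The first Lmnb2 window held 4, the most of these 9 windows, and those of Nes and Lmna held none. In 1 window, that of Des, CAGCTG was found. Of 32851 mouse promoters of the same length, 66.2% held CANNTG and 13.0% held CAGCTG. A match of letters is a description and no measure of binding.

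Composition within a library does not depend on the scaling between libraries. Vim made up 80.2% of the summed FPKM of Des, Vim, Nes, Synm and Sync in MB and 53.9% in MT. Des made up 7.81% in MB and 22.3% in MT, Nes 9.96% and 17.1%, and Sync 2.02% and 6.65%. The sum was 1264 in MB and 876 in MT, so the larger shares of Des and Sync stood beside higher levels, whereas the larger share of Nes stood beside a level only 1.19 times that of MB. The ratio of Vim to Des was 10.3 (10.1 to 10.4) in MB and 2.41 (2.39 to 2.44) in MT, so the balance between them differed 4.25-fold. Nes exceeded Des in MB, at a Des to Nes ratio of 0.784, and Des exceeded Nes in MT, at 1.31. Des to Sync was 3.86 (3.72 to 3.99) in MB and 3.36 (3.28 to 3.43) in MT, and the intervals did not overlap. In the polyA libraries this ratio was 15.5 in si-NC and 16.4 in si-hnRNPL. Those libraries differ in RNA selection, time and transfection, which cannot be told apart. The ratio of Des to its linker Plec was 2.04 in MB and 5.66 in MT.

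**Figure D4:**
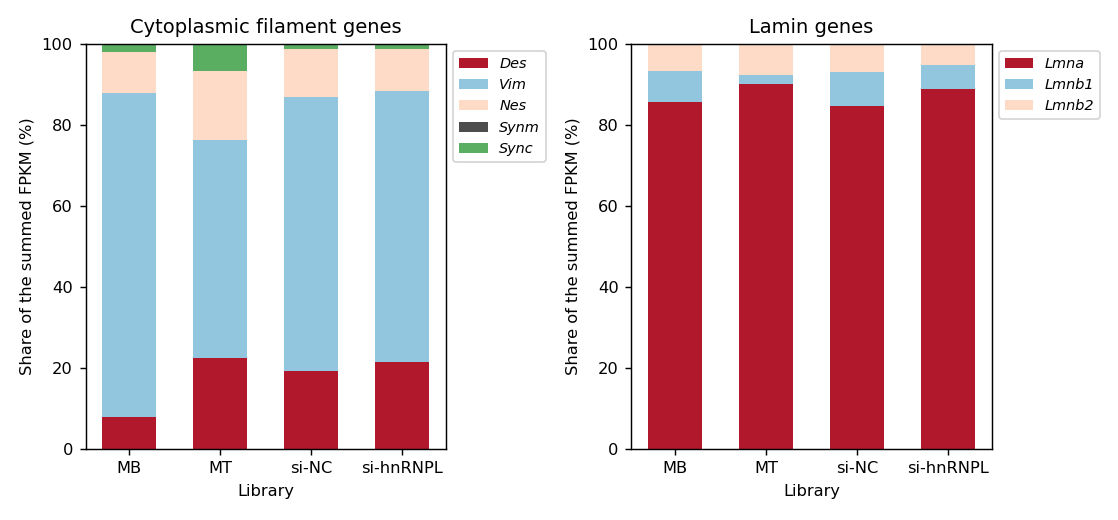
Share in percent of each gene in the summed FPKM of the cytoplasmic filament genes and of the 3 lamin genes, by library. The Vim share is 80.2% in MB and 53.9% in MT, and the Lmnb1 share of the lamins is 7.68% and 2.15%.

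All 3 lamin genes were lower in MT than in MB. Lmna encodes the A-type lamins A and C, splice forms of 1 gene that the gene value adds together, and lies at 3:88285070-88307274 on the minus strand (mm9). Its FPKM was 398 (394 to 402) in MB and 199.96 (198 to 202) in MT, a log2 change of -0.99 (-1.01 to -0.97), and 13.7% of the genes tested were lower by at least as much. Lmnb2, which encodes the B-type lamin B2, lies at 10:80364108-80380990 on the minus strand (mm9). Its FPKM was 30.4 (29.7 to 31.1) in MB and 16.9 (16.4 to 17.4) in MT, a log2 change of -0.81 (-0.86 to -0.76). Lmnb2 was the lamin nearest to the threshold: its change was -0.60 relative to the median gene and -0.49 relative to the upper quartile, by which it was no longer counted.

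Lmnb1, which encodes the B-type lamin B1, had the largest change of the 9 genes. It lies at 18:56867467-56913079 on the plus strand (mm9). Its FPKM was 35.6 (34.8 to 36.4) in MB and 4.76 (4.48 to 5.05) in MT, which is 7.48-fold lower, or 13.4% of the MB level. The log2 change was -2.67 (-2.75 to -2.59), or -2.46 relative to the median gene, and 0.731% of the genes tested were lower by at least as much. The FPKM of Lmnb1 in the polyA libraries, 30.3 in si-NC and 23.4 in si-hnRNPL, was near that of MB and not that of MT. These libraries differ from MT in time, RNA selection and transfection, which cannot be told apart.

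Lmna made up 85.8% of the summed lamin FPKM in MB and 90.2% in MT, while Lmnb1 made up 7.68% and 2.15% and Lmnb2 6.55% and 7.62%. The ratio of Lmna to Lmnb1 was 11.2 (10.9 to 11.4) in MB and 42.0 (39.4 to 44.5) in MT. Its ratio to Lmnb2 was 13.1 in MB and 11.8 in MT, so Lmna and Lmnb2 were lower in similar proportion. Lmnb1 to Lmnb2 went from 1.17 to 0.282, which exchanged the order of the B-type lamins. One assembled transcript unit of 425 bp lay within the Lmnb1 locus, at an FPKM of 1.70 (1.14 to 2.25) in MB and 1.11 (0.674 to 1.55) in MT, with intervals that overlapped.

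Proliferation genes were lower in MT together with the lamins. All 10 listed were lower by the threshold, beside 28.9% of all genes tested. They ran from -1.70 for Pcna, the sliding clamp of replication, to -3.21 for Mcm5, a subunit of the replicative helicase, with a median of -2.64. Between them lay Mki67 at -1.93, Top2a at -2.26, Cdk1 at -2.28, Mcm2 at -2.50, Ccna2 at -2.77, Mcm3 at -2.79, Aurkb (aurora kinase B) at -2.82 and Ccnb1 at -3.08. Ccnb1 (cyclin B1) went from 123 to 13.7, Ccna2 (cyclin A2) from 108 to 14.98, and Mki67, a marker of cycling cells, from 62.2 to 15.6. The change of Lmnb1 lay within their range and those of Lmna and Lmnb2 did not. The part of fewer cycling cells in the change of Lmnb1 was not tested. Among 5733 genes with a mean FPKM of at least 10 in both comparisons, the 5 whose pair of changes lay closest to that of Lmnb1 were Spag5 (-2.66 in MT over MB and -0.38 in si-hnRNPL over si-NC), Ccnf, Dlgap5, Mad2l1 and Kif20a. For Des they were Parp3 (0.97 and 0.21), Bphl, Traf4, Man1c1 and Cxcl12. For Vim they were Aatf (-1.09 and 0.01), Clic1, Eef1d, Myg1 and Actn1. Each pair of changes rests on the same 4 libraries.

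Of 15 lamina and nuclear envelope genes, 14 were tested and 7 were lower in MT, none was higher, and the median was -0.55. Over all genes tested 28.9% were lower and 14.6% higher, and the median was -0.21. Relative to the median gene 5 of the 14 were lower, beside 19.4% of all genes, and relative to the upper quartile also 5. The largest changes were those of Nrm (nurim), at -1.83, from 18.7 to 4.54, and of Lbr, the receptor that tethers lamin B at the inner nuclear membrane, at -1.73, from 50.7 to 14.6. Emd (emerin) was at -1.32 and Banf1, the barrier-to-autointegration factor that joins chromatin to the envelope, at -1.31. The other genes of the 7 were Syne2 (nesprin 2) at -0.91, Syne3 (nesprin 3) at -0.78 and Tmem43 at -0.70. Syne3 is the nesprin that binds plectin. Sun1 and Sun2, which cross the inner membrane and hold the nesprins, were at 0.05 and -0.30. Of the 5 enzymes that process prenylated lamins, 2 were lower, Rce1 at -0.95 and Fntb, the beta subunit of farnesyltransferase, at -0.84. Zmpste24, the protease that cuts prelamin A, was at -0.50, under the threshold, and the median of the 5 was -0.50. Relative to the upper quartile 1 of the 5 was lower, and at a threshold of 1 none was.

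Other filament genes of the family were mostly at or near 0 in these cells, and 4 of 12 were tested. Nefl, the neurofilament light chain, stood at 38.1 (37.1 to 39.1) in MB, above Lmnb1, and at 0.138 (0.0789 to 0.196) in MT, a log2 change of -5.10. Krt19 (keratin 19) went from 8.87 to 0.721, a change of -2.52, and Nefm, the neurofilament medium chain, from 2.57 to 0.0375, a change of -1.78. Krt80 was the exception at 11.3 and 13.3, a change of 0.21. The neuron markers Rbfox3, Snap25 and Syt1 summed to 0.0117 in MB, and the epithelial markers Epcam, Cdh1 and Krt5 to 0.0936.

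Plakins and desmosome genes were divided. Of 9 listed, 5 were tested, of which 3 were higher in MT and 2 lower, with a median of 0.65. Over all genes tested 14.6% were higher and 28.9% lower. Macf1 and Dst, giant plakins that like plectin link filament systems, were higher by 1.07 (30.8 to 65.8) and 0.92 (30.0 to 57.7), opposite in sign to Plec. Jup (plakoglobin) was higher by 0.65, while the plakophilins Pkp2 and Pkp1 were at -1.93 and -1.17. Dsp (desmoplakin), which anchors desmin in heart muscle, was at 0.0128 in MB and 0.00367 in MT.

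Among 9 binding partners and chaperones of desmin, synemin and syncoilin, 8 were tested, of which 3 were higher in MT and 1 lower, with a median of 0.48. Neb (nebulin), the thin filament protein that binds desmin at the Z-disc, went from 0.0573 to 27.7, a change of 4.76. Dtna, which encodes alpha-dystrobrevin, the partner of syncoilin, was higher by 1.63 (6.54 to 22.3), while Dtnb (beta-dystrobrevin) was at -0.88. Utrn (utrophin) was higher by 0.60. Relative to the median gene 5 of the 8 were higher, and likewise 5 relative to the upper quartile, while at a threshold of 1, or with a mean FPKM of at least 5, none was lower. Cryab, a small heat shock protein that binds desmin filaments, was at 0.55 (115 to 169), just under the threshold, and Hspb1, another, was at -0.20. Over the 6 lists 46 of 60 genes were tested, of which 6 were higher and 25 lower, beside 14.6% higher and 28.9% lower over all genes.

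**Figure D5:**
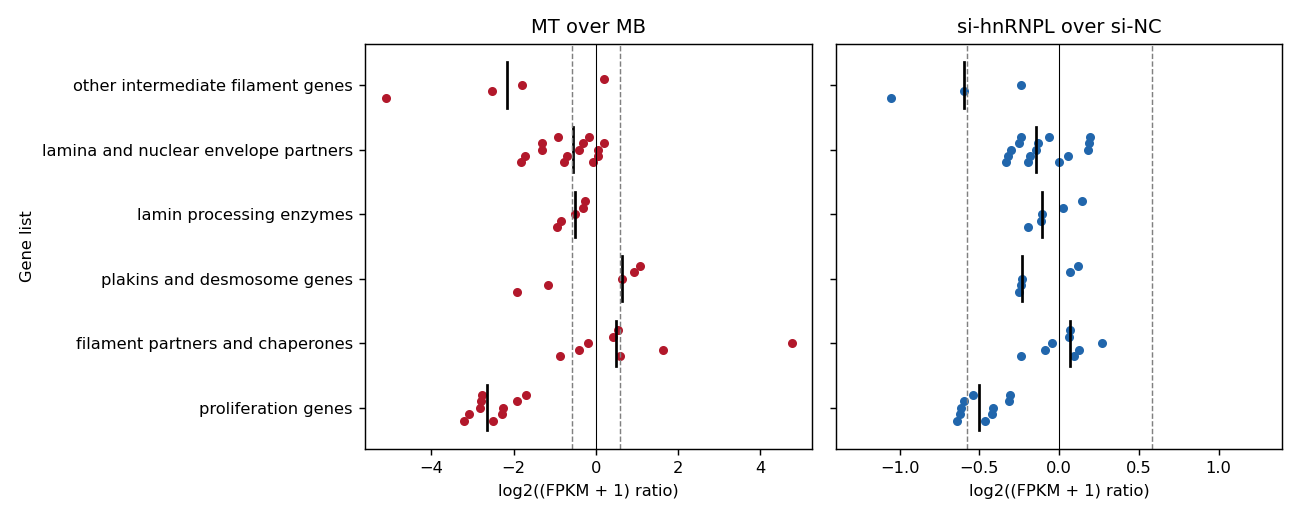
Log2 change of FPKM + 1 for the tested genes of the 6 lists, 1 point per gene, in MT over MB and si-hnRNPL over si-NC (axes of different range), with black bars at the median of each list and dashed lines at the threshold of 0.58. All 10 proliferation genes lie below the lower line in the first comparison, and plakins lie on both sides.

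The second comparison asks what differs when hnRNPL is reduced in myotubes at 48 h in DM. None of the 9 filament genes reached the threshold in si-hnRNPL over si-NC, where 1.36% of 11234 genes tested were higher and 0.863% lower. Changes ran from -0.36 to 0.23 with a median of -0.04, against -0.01 over all genes, and 4 were above 0 and 5 below. For 7 of the 9 genes the interval of the change left out 0, which takes in errors of counting and assignment and no spread between cultures. Since 1 library stood for each condition and Hnrnpl RNA was at 90.4% of its control, these values set no limit on what a stronger depletion would do. The RNA value gives no protein level, which the paper examined by Western blot after knockdown.

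Lmnb1 again had the largest change. Its FPKM was 30.3 (29.2 to 31.4) with si-NC and 23.4 (22.1 to 24.6) with si-hnRNPL, or 77.1% of the control, a log2 change of -0.36 (-0.45 to -0.27). Of the genes tested, 3.96% were lower by at least as much. Lmnb2 was at 24.5 (23.2 to 25.9) and 21.0 (19.6 to 22.4), a change of -0.22 (-0.34 to -0.10). Lmna lay on the other side, at 302 (293 to 311) and 356 (344 to 367), a change of 0.23 (0.17 to 0.30), with 11.9% of the genes higher by at least as much. The ratio of Lmna to Lmnb1 was therefore 9.97 (9.49 to 10.4) with si-NC and 15.2 (14.3 to 16.2) with si-hnRNPL, a 1.53-fold difference, which is larger than the difference of either gene alone. Lmna made up 84.6% of the lamin FPKM with si-NC and 88.9% with si-hnRNPL. By the threshold 4 of 10 proliferation genes were also lower (Mcm5 at -0.64, Mki67 and Mcm3 at -0.62 and Top2a at -0.60), beside 0.863% of all genes. All 10 proliferation genes were below 0, with a median of -0.50. Their part in the values of Lmnb1 and Lmnb2 was not tested.

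Des was 412 in si-NC and 472 in si-hnRNPL, a ratio of 1.15 and a log2 change of 0.20 (0.11 to 0.28), and 15.5% of the genes were higher by at least as much. Of the 8 muscle markers, 6 had a higher FPKM in si-hnRNPL, such as Acta1 at 1537 against 1009 and Myog at 249 against 175, and 2 had a lower one, Myf5 (a factor of myoblasts) at 29.0 against 38.5 and Cdh15 (M-cadherin) at 162 against 167. Their part in the value of Des was not tested. Vim was nearly identical, at 1459 (1449 to 1470) and 1477 (1464 to 1490), a change of 0.02 (0.00 to 0.03). Nes was 253 (250 to 255) with si-NC and 229.7 (227 to 232) with si-hnRNPL, a change of -0.14 (-0.16 to -0.12). The change of Plec was -0.09 (-0.14 to -0.04), from 60.3 to 56.5, and that of Sync was 0.11 (-0.02 to 0.25). Synm was at 0.135 (0.0867 to 0.183) and 0.105 (0.0469 to 0.162), with half-widths of 35.7% and 55.2% of the value, and a difference was not detectable at this depth.

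The cytoplasmic composition differed little between the transfected libraries. Vim made up 67.9% of the sum in si-NC and 66.9% in si-hnRNPL, Des 19.1% and 21.4%, Nes 11.7% and 10.4%, and Sync 1.23% and 1.30%. The ratio of Vim to Des was 3.54 (3.39 to 3.70) and 3.13 (2.99 to 3.27), a 1.13-fold difference in the balance, against 4.25-fold between MB and MT. The 2 comparisons differ in RNA selection and were not tested against each other.

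Of the 46 partner genes tested in si-hnRNPL over si-NC, none was higher and 6 were lower, beside 1.36% and 0.863% over all genes. Of the 6, 4 were the proliferation genes above. The other two were filament genes, Nefl at -1.06 (8.18 to 3.41) and Krt80 at -0.59 (47.6 to 31.2). Krt19 was at -0.24 and the median of this list was -0.59 over 3 genes tested. No gene of the lamina list (15 tested, median -0.14), of the lamin-processing list (5 tested, median -0.10), of the plakin and desmosome list (5 tested, median -0.23) or of the partner and chaperone list (8 tested, median 0.07) reached the threshold. The largest values in these lists were Nrm at -0.34, Tmpo (lamina-associated polypeptide 2) at -0.32 and Syne2 at -0.30, then Icmt at -0.19, Fnta at 0.14 and Zmpste24 at -0.11. In the plakin list Dst was at -0.25, Macf1 at -0.24 and Pkp1 at -0.23, and among the partners Cryab was at 0.27, Utrn at -0.24 and Hspb1 at 0.13.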

How the data were processed

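Libraries of total RNA (MB, MT) and of polyA RNA (si-NC, si-hnRNPL) were analysed, 1 for each condition, grouped by the labels. The authors mapped reads to mm9 with TopHat2, estimated abundance with Cufflinks and deposited FPKM values with 95% bounds; versions are not given in the labels. A symbol's value was its first entry. Changes were log2 ratios of FPKM + 1 (pseudocount 1), counted at 0.58, and their intervals came from the half-widths of both bounds added in quadrature. Background counts took named entries with a mean FPKM of at least 1. The effective number of fragments was derived from the interval width. Intervals cover counting and assignment error, not the spread between cultures. Scripts were tested on simulated data and used Python 3.11.15, numpy 2.4.6, pandas 2.3.3 and matplotlib 3.10.9. In each of 6 partner lists the 3 largest changes and any at the threshold were named, and for Des, Vim and Lmnb1 the 5 genes closest in both changes. Sun1, Sun2, Krt80, Dsp, Cryab, Hspb1, Syne1 and Dmd were named outside this rule, at least in MT over MB, after their values were seen. Other pseudocounts (0.1, 0.01), thresholds (1), scalings, filters and sums of entries were tried. Loci were compared with GENCODE on the same build. The members and lists were chosen with earlier results of these data known.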

Additional observations from a re-analysis of the deposited data

How the results depend on the processing

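All 9 genes kept their direction under every alternative in both comparisons. With a threshold of 1 in place of 0.58, 1 gene (Sync) was higher and 2 (Vim and Lmnb1) were lower in MT, against 2 and 4, and of the partner genes 3 were higher in MT over MB (against 6) and 1 was lower in si-hnRNPL over si-NC (against 6). By list, the threshold of 1 left 1 plakin or desmosome gene higher (against 3) and 4 lamina genes lower (against 7) in MT over MB, and 1 other filament gene (against 2) and 0 proliferation genes (against 4) lower in si-hnRNPL over si-NC. The share of all genes at a threshold of 1 was not computed, so these counts stand without a background. With a mean FPKM of at least 5, 1 other filament gene was lower in MT (against 3). With Plec in the cytoplasmic sum the Vim share was 77.2% in MB, 51.8% in MT, 66.0% in si-NC and 65.2% for si-hnRNPL. With Des, Vim and Nes alone it was 81.9%, 57.8%, 68.7% and 67.8%. Of 424 alternative values, 60 moved. A reversal could be recorded only for the change of a gene counted by the main rule, and none was. Other thresholds and sums of entries leave such a change as it is, and counts, ratios and shares could not reverse. No paired analysis was possible because the labels carry no replicate numbers and each condition has 1 library, so no library could be left out either. Depth limits Synm most, and FPKM hides the number of reads behind a value.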

Other observations

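The transcripts of 2 very long partner genes were listed at or near 0 in some tables, which in a table of FPKM can be a failed estimate and is not read as lack of expression. Syne1 (nesprin 1), a muscle protein that joins nuclei to the cytoskeleton, was listed at 0 in MB and at 0.00169 in MT, but at 8.37 in si-NC and 6.87 in si-hnRNPL. Dmd (dystrophin) was listed at 0 in MB, at 0.311 in MT, at 0.0390 in si-NC and at 0.0707 in si-hnRNPL. Of the markers of other cell types, Scx, a factor of tendon and muscle attachment cells, stood out at 56.1 in MB, 92.6 in MT, 43.1 in si-NC and 70.2 in si-hnRNPL, while the tendon markers Tnmd and Mkx were under 1.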
